A study of Mus musculus with 4 samples.

Results

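The Bex genes (brain expressed, X-linked) were examined in 2 kinds of cultured mouse melanocytes, called lines here. All 5 members, Bex1, Bex2, Bex3, Bex4 and Bex6, were on the array, each with 1 probe set annotated to that symbol alone, out of 18193 genes with such a probe set. The family was selected on the measured difference of Bex1 between the lines, so every Bex value in that contrast is given as a description and without a test. The pigmented line carries a tyrosinase gene in which the point mutation was corrected, and the non-pigmented line is homozygous for that mutation. Both came from skin melanocytes on the Balb/c background and were grown with fetal calf serum, 2-mercaptoethanol and the phorbol ester TPA. Each line gave 2 arrays of total RNA, with 1 array of either line under each of 2 dates in the titles. The labels do not say how the tyrosinase gene was corrected, whether a line is 1 clone, or whether arrays of a line are separate cultures, so the p-values below reflect only how these arrays varied, and that variation may be technical.

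Bex proteins are small, largely unfolded adaptor proteins that are abundant in neurons and in several progenitor and endocrine cells. Bex3, also called NADE or Ngfrap1, binds the neurotrophin receptor p75, and in rat cells Bex1 binds it too. Bex1, once called Rex3, takes part in cell cycle exit and differentiation of neuronal and muscle precursors. BEX2 joins a transcription factor complex with LMO2 in human cells, and human BEX4 binds microtubules. Bex6 lies on mouse chromosome 16, apart from the other members, and is little studied. The older names cross: in the RefSeq table Bex4 is also a former name of Bex1, and Bex1 a former name of Bex2, so members were matched by Entrez gene number (19716 for Bex1, 12069 for Bex2, 12070 for Bex3, 406217 for Bex4 and 328660 for Bex6).

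The 4 members on the X chromosome stand in the order Bex2, Bex4, Bex1 and Bex3 and fall into pairs by the sequence around their annotated starts. The windows below, from RefSeq (GRCm38.p6), run from 250 bases before the start to 10 bases after it, and are shown because they fall into 2 pairs of like sequence. Bex1 (chrX:136215504-136215763) and Bex2 (chrX:136068227-136068486) are on the minus strand, and Bex4 (chrX:136138746-136139005) and Bex3 (chrX:136270003-136270262) on the plus strand. Each is written 5′ to 3′ on its own strand. Capitals mark matches on either strand to 5 searched motifs: the E-box CACGTG, the M-box core CATGTG, the cAMP response element TGACGTCA, the GC box GGGCGG and the TATA box TATAAA.
Bex1: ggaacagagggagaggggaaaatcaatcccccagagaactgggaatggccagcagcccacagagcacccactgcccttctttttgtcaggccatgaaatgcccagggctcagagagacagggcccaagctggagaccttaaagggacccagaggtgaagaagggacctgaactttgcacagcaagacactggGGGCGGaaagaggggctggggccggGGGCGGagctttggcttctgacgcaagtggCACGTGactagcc
Bex4: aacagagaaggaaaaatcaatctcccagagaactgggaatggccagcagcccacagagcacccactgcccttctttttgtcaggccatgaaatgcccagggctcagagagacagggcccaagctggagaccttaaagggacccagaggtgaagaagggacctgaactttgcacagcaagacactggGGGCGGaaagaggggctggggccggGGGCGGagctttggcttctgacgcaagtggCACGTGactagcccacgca
Bex3: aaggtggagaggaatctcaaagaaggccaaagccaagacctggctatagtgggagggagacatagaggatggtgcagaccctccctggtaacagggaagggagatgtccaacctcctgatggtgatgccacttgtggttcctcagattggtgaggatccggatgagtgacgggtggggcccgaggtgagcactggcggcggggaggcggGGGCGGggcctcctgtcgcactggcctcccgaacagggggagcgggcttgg
Bex2: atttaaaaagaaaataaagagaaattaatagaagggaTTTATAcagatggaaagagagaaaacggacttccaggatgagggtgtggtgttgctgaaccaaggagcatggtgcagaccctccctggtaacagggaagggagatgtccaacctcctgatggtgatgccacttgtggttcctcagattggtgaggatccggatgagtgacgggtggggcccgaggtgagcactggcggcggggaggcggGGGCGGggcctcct

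The best aligned stretch of the Bex1 and Bex4 windows held 250 columns with 247 identical bases, 3 mismatches and no gap, an identity of 98.8%. That of Bex2 and Bex3 held 159 columns with 158 identical bases and 1 mismatch, or 99.4%. Across the pairs likeness was low: the longest aligned stretch between a window of one pair and a window of the other had 30 columns. Bex6 had no stretch of over 16 columns with any other member. Of 241 words of 20 bases in the Bex1 window, 212 recurred in that of Bex4, and no gene of the table other than Bex4 held any of them. Both Bex1 and Bex4 carried 1 E-box, starting 3 bases before the annotated start in Bex1 and 9 before it in Bex4, and the same pair of GC boxes. Of all 32851 windows of this length in the table, 6.34% held CACGTG and 33.5% held GGGCGG. The M-box core, in 12.7% of all windows, was found in Bex6, and a TATA box, in 12.7% of all windows, in Bex2. The cAMP response element (1.67% of windows) was in none of the 5. These matches describe letters only.

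**Figure D1:**
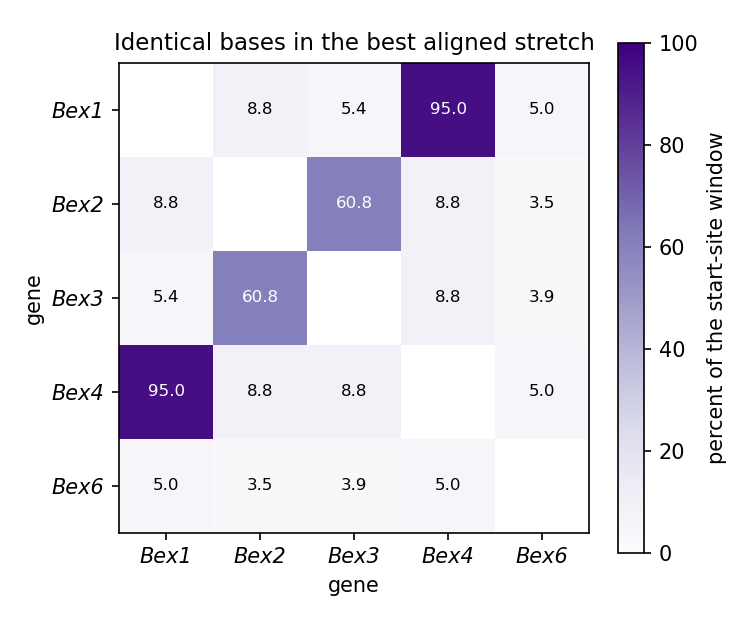
Likeness of the start-site windows of the 5 Bex genes. Rows and columns are genes, and each cell gives the bases that are identical in the best aligned stretch of 2 windows as a percent of the window of 260 bases. Bex1 with Bex4 (95.0%) and Bex2 with Bex3 (60.8%) stand out from all other pairs, which lie at or below 8.85%.

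The files hold no detection column, so the Bex signals were set against 3 control probe sets for tryptophan genes of Bacillus subtilis, which have no mouse target. The controls ranged from 3.33 to 12.5 on pigmented replicate 1, from 3.61 to 38.3 on pigmented replicate 2, from 4.77 to 55.3 on non-pigmented replicate 1 and from 0.862 to 4.19 on non-pigmented replicate 2. Of the 20 Bex signals 6 lay inside the range of their array and are called at background here: Bex1, Bex2, Bex4 and Bex6 on non-pigmented replicate 1, and Bex2 and Bex6 on pigmented replicate 2. A log2 difference that uses one of these signals has no exact size.

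Bex1 was high in the pigmented line and near the floor of the array in the non-pigmented line. Its probe set signal was 4973 and 16804 on pigmented replicates 1 and 2, against 9.73 and 49.5 on non-pigmented replicates 1 and 2. Both pigmented arrays lay far above both non-pigmented arrays, and the lower pigmented signal was 100.4 times the higher non-pigmented one. On the scale of log2(signal + 16) used throughout, Bex1 averaged 13.16 ± 1.24 in the pigmented and 5.36 ± 0.95 in the non-pigmented line (SD, n = 2 each). The log2 difference, pigmented minus non-pigmented, was 7.80, which corresponds to 223-fold and rests in part on the signal at background on non-pigmented replicate 1. Within the earlier date, whose non-pigmented signal was at background, the log2 difference was 9.35, and within the later date it was 6.25. In such bulk RNA, fewer cells with a transcript and less of it per cell cannot be told apart. The size depends on the pseudocount, because the non-pigmented signal is so low: the log2 difference was 6.65 with 64 and 8.62 with 1 in place of 16.

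Bex4, whose start-site window nearly equals that of Bex1, had a mean below the filter on dim genes described below. Its signal was 31.6 and 87.3 on pigmented replicates 1 and 2, against 12 and 38.9 on non-pigmented replicates 1 and 2. The groups overlapped. Bex4 averaged a log2 value of 6.13 ± 0.79 in the pigmented and 5.29 ± 0.69 in the non-pigmented line (SD, n = 2 each), a log2 difference of 0.84 with opposite signs in the dates (1.88 in the earlier and -0.21 in the later). The files give no probe sequences, so how far the Bex1 and Bex4 probe sets can tell these similar transcripts apart was not tested.

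Bex3 was bright in both lines. Its signal was 6661 and 4961 on pigmented replicates 1 and 2, against 6612 and 3782 on non-pigmented replicates 1 and 2. The groups overlapped, and in each line replicate 2 had the lower signal. Bex3 averaged a log2 value of 12.49 ± 0.30 in the pigmented and 12.29 ± 0.57 in the non-pigmented line (SD, n = 2 each). The log2 difference of 0.20 was smaller than either SD, changed sign between the dates (-0.41 in the earlier, 0.81 in the later) and turned to -0.04 when arrays were centred on their medians.

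Bex2, whose start-site window shares 1 long stretch with that of Bex3, also had a mean below the filter. Its signal was 105.7 and 32.7 on pigmented replicates 1 and 2, against 22.5 and 23.7 on non-pigmented replicates 1 and 2. Both pigmented values were the higher ones, but most of the log2 difference of 0.98 came from pigmented replicate 1. Bex2 averaged a log2 value of 6.27 ± 0.93 in the pigmented and 5.29 ± 0.03 in the non-pigmented line (SD, n = 2 each). Without pigmented replicate 1 the log2 difference was 0.32. Bex6 had a signal of 78.3 and 11.5 on pigmented replicates 1 and 2, against 25.5 and 7.98 on non-pigmented replicates 1 and 2. Its groups overlapped, with a log2 difference of 0.69 and SDs of 1.26 in the pigmented and 0.56 in the non-pigmented line. Without pigmented replicate 1 its log2 difference was -0.20.

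**Figure D2:**
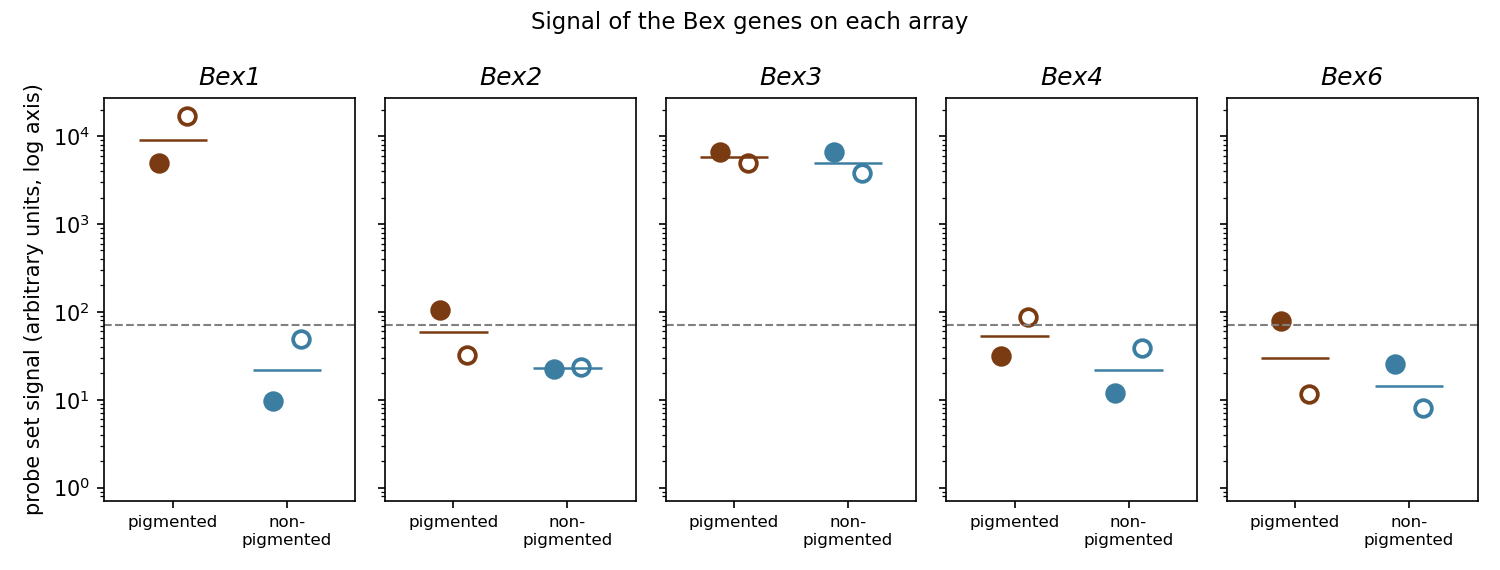
Signal of each Bex probe set on the 4 arrays, on a log axis in arbitrary units, with the pigmented line left of the non-pigmented line. Filled points are arrays called intact by the 3′ to 5′ ratio of a control, and open points are arrays with low 5′ signal. Short lines are geometric means of 2 arrays, and the dashed line is the filter at a signal of 70.7. Only Bex1 is high in one line (4973 and 16804) and low in the other (9.73 and 49.5), whereas Bex3 is at or above 3782 on all arrays. Heights of different probe sets are not comparable.

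The lines did not overlap in 2 of the 5 members, Bex1 and Bex2, and did not overlap in 41.3% of all 18193 genes. Genes entered the fit across all genes when their mean log2 value reached 6.44, the 40th percentile of all probe sets, which corresponds to a signal of 70.7. That left 12558 genes, of which 2 are Bex genes. Bex3 passed on both lines, and Bex1 only through the pigmented arrays, since its non-pigmented mean lay below the filter. Bex2, Bex4 and Bex6 were under it. Among the 5635 genes under the filter the median absolute log2 difference between the lines was 0.47, and the 0.9 quantile was 1.23. The differences of Bex2, Bex4 and Bex6, each of which was at background on non-pigmented replicate 1, lay inside that spread.

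The arrays differed in RNA integrity, and this contrast played no part in choosing the family. The 3′ to 5′ ratio of the Gapdh control was 16.8 on pigmented and 20.2 on non-pigmented replicate 2, called low 5′ arrays here, against 0.864 on pigmented and 0.903 on non-pigmented replicate 1, called intact. Each class holds 1 array of either line. In the pigmented line the Bex1 signal on the low 5′ array was 3.38 times that on the intact array. In the non-pigmented line the intact array was at background, so no exact ratio can be given there. In the pigmented line that is a log2 difference of 1.75, from 1 array of each class. A fit over both lines cannot decide the question for Bex1, because it averages that value with one that rests on a signal at background. Bex1 also entered the fit only through the pigmented arrays, so no error, interval or p is given for it. Over all genes limma called 0 of 12558 (0%) in this contrast at an adjusted p under 0.05, and 2789 had an unadjusted p under 0.05. With quantile normalization 727 genes were called, and with median centring 1047. For Bex4, which was not tested, the log2 difference was 1.12 in the pigmented line, and in the non-pigmented line the intact array was at background.

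Bex3, well above background on every array, had the lower signal on the low 5′ array of both lines. Its log2 difference was -0.61 ± 0.23 (SE), with a limma adjusted p of 0.202 and a 95% interval of -1.18 to -0.04. Bex2 and Bex6 each had 1 array of either line at background, so their differences have no exact size. The line difference of Bex1 was 8.0 on the log2 scale between the low 5′ arrays and 7.60 between the intact arrays. Its signal on the low 5′ non-pigmented array, 49.5, was above the controls of that array but below the filter at 70.7. On the intact non-pigmented array it was at background. In this layout the contrast of RNA integrity is also the difference of the line effect between the dates. Between the dates themselves, later minus earlier, the log2 difference was -0.19 ± 0.61 (SE) for Bex3, with a 95% interval of -1.54 to 1.16. For Bex1 it was -0.20, which also uses the signal at background, so no error or interval is given. Bex3 did not pass by limma. No gene of 12558 (0%) was called between the dates, and 78 had an unadjusted p under 0.05.

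**Figure D3:**
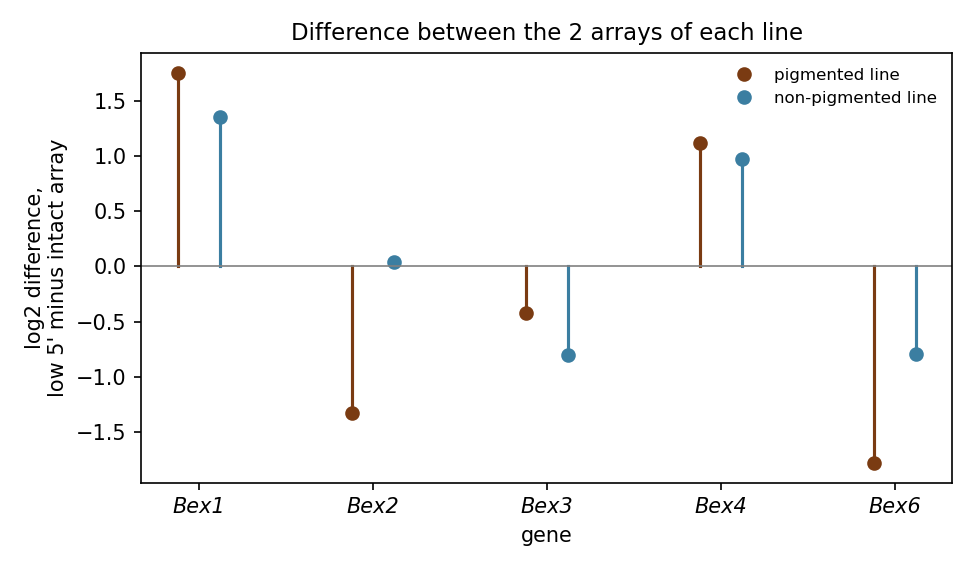
Log2 difference between the 2 arrays of each line, low 5′ minus intact, for the 5 Bex genes. Each line contributes 1 point per gene, the pigmented line left of the non-pigmented line, on the scale of log2(signal + 16). Bex3 (-0.42 and -0.80) is below 0 in both lines, and Bex1 (1.75) and Bex4 (1.12) are above 0 in the pigmented line. Points of Bex2 and Bex6, and non-pigmented points of Bex1 and Bex4, use a signal at background.

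The X-linked Bex genes belong to a cluster with the Tceal genes, which encode related proteins, and with the Armcx and Gprasp genes, which encode Armadillo-repeat proteins. Of 16 listed Tceal, Armcx and Gprasp genes 13 were on the array and 8 were tested. Between the lines 1 of the 8 rose, 0 fell and 7 did not pass, with a median log2 difference of 0.39. Over all 12558 genes tested, limma called 3.36% (1.33% higher and 2.03% lower in the pigmented line), with a median of 0.07. The member that rose was Bhlhb9, also known as Gprasp3. Its signal was 1370.3 and 2078 on pigmented replicates 1 and 2, against 78.4 and 54.4 on non-pigmented replicates 1 and 2, with both pigmented arrays well above both others. The log2 difference was 4.39 ± 0.45 (SE), with an adjusted p of 0.00820 by limma.

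Tceal9 and Tceal8, which lie between Bex genes, were bright in both lines. Tceal9 had a signal of 10588 and 11188 on the pigmented arrays, against 8485 and 7497 on the non-pigmented arrays. Its log2 difference of 0.45 ± 0.29 did not pass (adjusted p of 0.602 by limma). Tceal8 overlapped, at 3002 and 1257 on the pigmented arrays, against 3223 and 1897 on the non-pigmented arrays. Armcx3, a mitochondrial outer membrane protein, was lower on both pigmented arrays (729 and 614, against 2106 and 2093 on the non-pigmented arrays), with a log2 difference of -1.63 ± 0.41 and an adjusted p of 0.119 by limma (it missed the threshold). The fourth by its p, Armcx6, had a log2 difference of 0.52 with an adjusted p of 0.704.

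In the order of genes along the X chromosome, the large Bex1 difference stood between small ones. On one side lay Tceal8 (-0.34) and then Bex4 (0.84), and on the other Tceal7 (0.18), Tceal9 (0.45) and Bex3 (0.20). Of the 26 protein-coding neighbours, 10 on either side of each member, 17 were on the array and 8 were tested. Bhlhb9, which also belongs to the previous list, rose, Tcp11x2 fell and 6 did not pass, with a median log2 difference of 0.39. Tcp11x2 had a signal of 18.7 and 12.5 on the pigmented arrays, against 769 and 822 on the non-pigmented arrays, with a log2 difference of -4.69 ± 0.42 (SE) and an adjusted p of 0.00618 by limma. Its second, dimmer probe set had the opposite direction (1.0), and the mean of both gave -1.84 with an adjusted p of 0.0760. The next by p were Prame (0.76, adjusted p of 0.547) and Tceal9. Of 377 tested genes of the whole X chromosome other than the Bex genes, 12 rose and 7 fell, or 5.04%, with a median of 0.05.

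**Figure D4:**
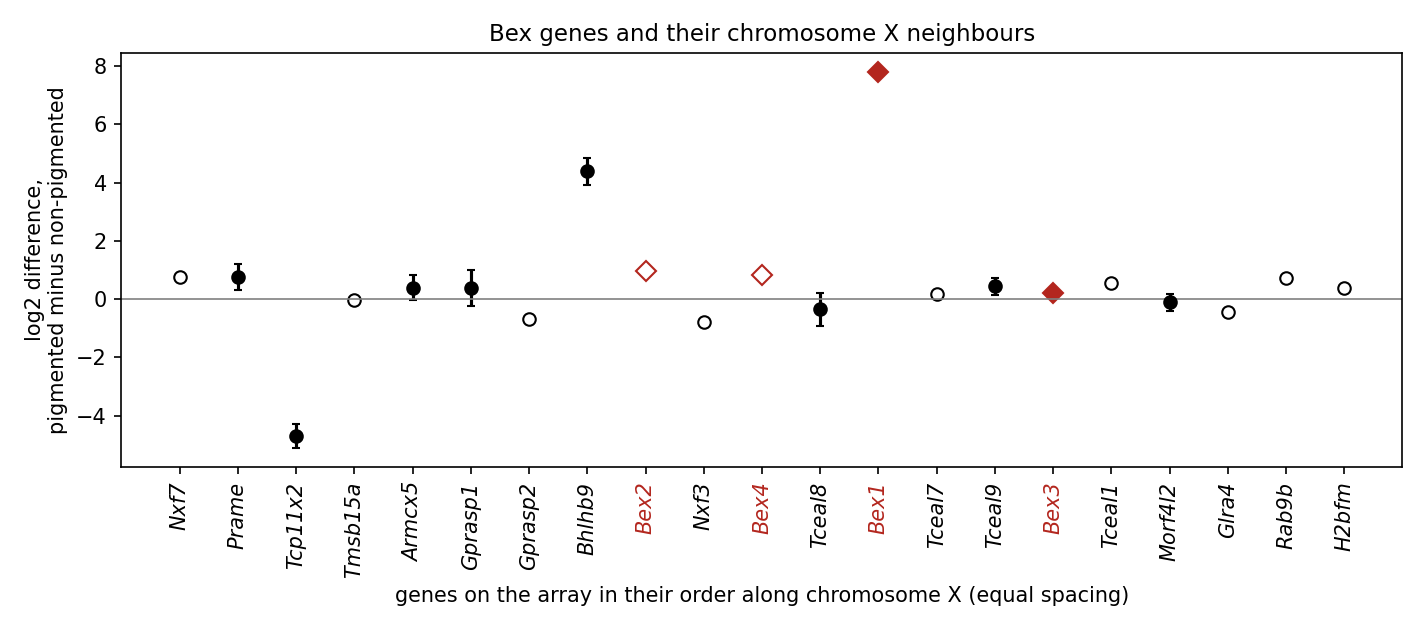
Log2 difference, pigmented minus non-pigmented, for the Bex genes (red diamonds) and their neighbours on the array (black circles), in their order along the X chromosome with equal spacing. Filled symbols passed the filter on dim genes and open ones did not, and bars are standard errors from limma, drawn for tested neighbours only. Bex1 (7.80), Bhlhb9 (4.39) and Tcp11x2 (-4.69) lie far from 0, and all other genes shown lie within 1 of it.

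Genes of the neurotrophin receptor pathway and reported binding partners of Bex proteins showed no called difference. Of 31 listed, 21 were on the array and 18 were tested, and limma called 0 of them. None (0) had an unadjusted p under 0.05, and the list had a median log2 difference of 0.17. Over all 12558 genes tested, limma called 3.36%, and 1735 had an unadjusted p under 0.05. A list of 18 is too short to tell a count of 0 from that share. Ngfr, the p75 receptor itself, was dim, at 29.9 and 41.4 on the pigmented arrays, against 89.1 and 15.6 on the non-pigmented arrays, and was not tested. Lmo2 was dimmer still, with no signal above 20.2 on any array. The smallest p-values belonged to Ntrk3, a receptor for neurotrophin-3 (log2 difference of 1.27, adjusted p of 0.362 by limma), Traf6, a signalling adaptor (1.35, adjusted p of 0.461), Zfp110, a p75-binding zinc finger protein (1.02, adjusted p of 0.469), and Maged1, another p75-binding protein (-0.74, adjusted p of 0.483).

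Neuronal and neuroendocrine genes, which apart from the repressor Rest share with Bex1 a high level in neurons, moved in both directions. Of 25 on the array 10 were tested: 1 rose, 1 fell and 8 did not pass, with a median log2 difference of -0.71. Over all 12558 genes tested, limma called 1.33% higher and 2.03% lower in the pigmented line, with a median of 0.07. Syt4, a synaptotagmin of secretory vesicles, had a signal of 11332 and 3937 on the pigmented arrays, against 179.9 and 86.1 on the non-pigmented arrays. Both its probe sets were higher in the pigmented line, and the log2 difference of the chosen one was 5.57 ± 0.65 (SE), with an adjusted p of 0.0108 by limma. L1cam, a neural adhesion molecule, fell by 1.90 ± 0.35, with a signal of 2057 and 2395 on the pigmented arrays, against 7705 and 9001 on the non-pigmented arrays. Its adjusted p of 0.0474 by limma became 0.178 with the date as a block, and 0.224, 0.335 and 0.0693 without non-pigmented replicate 1, non-pigmented replicate 2 and pigmented replicate 1. The mean of its probe sets gave -1.47 with an adjusted p of 0.516. Uchl1, a neuronal deubiquitinase (-2.46, adjusted p of 0.101), and Map2, a microtubule-binding protein (-1.81, adjusted p of 0.107), did not pass. Rest, the repressor of neuronal genes, had a log2 difference of -0.38 with an adjusted p of 0.810.

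The 3 tested genes with profiles most like that of Bex1 were Cd200r4, an immune receptor gene, Tspan10, a tetraspanin gene of pigment cells, and Pla2g2e, a secreted phospholipase. Likeness was the root mean square difference of gene-centred log2 values over the 4 arrays, and it was 0.60, 0.82 and 0.85 for these genes, with a median of 3.96 over all tested genes. Most of that distance is the large line difference by which Bex1 was chosen. These genes share it, with line differences of 7.38, 6.72 and 6.48, so their likeness is no separate finding. Cd200r4 had a signal of 5195 and 6832 on the pigmented arrays, against 13.9 and 27.0 on the non-pigmented arrays. For Bex3 the nearest were Rbp4, a retinol carrier (0.03), Emc4, a subunit of an endoplasmic reticulum membrane complex (0.04), and Aaas, a nuclear pore protein (0.04), with a median of 0.56. Like Bex3, all 3 were lower on the low 5′ arrays, with log2 differences of -0.59, -0.56 and -0.54.

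The labelled cell type was checked on 10 melanocyte markers, all of them tested. In the pigmented line 7 rose, among them Tyr (17306 and 11698, against 213.8 and 67.2 in the non-pigmented line), and 0 fell. Over all 12558 genes tested, limma called 3.36%. Kit, a growth factor receptor (5.66), and Mitf, the master regulator of the lineage (3.36), were among the others by log2 difference. Sox10, from the same list, was bright on every array, at 8602 and 10232 in the pigmented and 8268 and 8558 in the non-pigmented line. It therefore does not tell the 2 lines apart, and by itself it does not settle the cell type of the non-pigmented line. Of 9 neuron markers on the array 5 were tested. By limma 0 passed, and 1 had an unadjusted p under 0.05. The summed signal of all 9 was lower in the pigmented line (1189.8 to 1667) than in the non-pigmented line (3162 to 3323). Map2 (601 and 478, against 1602 and 2303) and Tubb3 (502 and 149, against 946 and 461) account for most of that gap, and neither was called. The list was mixed: Snap25 and Elavl4 had signals of at most 17.6 on the pigmented arrays, whereas Stmn2 (159 and 108, against 40.7 and 12.5 in the non-pigmented line, not tested) and Syp (log2 difference of 0.59, adjusted p of 0.636) had higher values there. Of 9 tested Schwann cell and progenitor markers 5 fell (Mbp, Pmp22, S100b, Sox2 and Nes) and 0 rose, with a summed signal of 3222 to 4189 in the pigmented line, against 22858 to 27977 in the non-pigmented line. Foxd3 (1.95, adjusted p of 0.141 by limma) and Mal (1.76, adjusted p of 0.119) had positive log2 differences and did not pass. Among the markers of fibroblasts (4 tested), immune cells (3), endothelium (1) and muscle (3), limma called 0, and 1, 0, 0 and 2 of them had an unadjusted p under 0.05. The fibroblast sum was 1519 to 1635 in the pigmented line, against 843 to 971 in the non-pigmented line. Col1a2 alone made it higher (1222 and 1176, against 199.9 and 348), and the other 7 summed to 413 and 343 on the pigmented arrays, against 643 and 622 on the non-pigmented arrays. The muscle sum was 812 to 1003 in the pigmented line, against 1944 to 5245 in the non-pigmented line. Acta2 (644 and 603, against 3674 and 1647) and Actg2 (114 and 8.13, against 1395 and 178) made it lower. By log2 difference Des (-0.23) was also lower, and Myh11 (1.65) and Cnn1 (0.48), which were not tested, were higher. Of 4 tested keratinocyte markers Krt10 fell, and the sum was 521 to 526 in the pigmented line, against 886 to 907 in the non-pigmented line. By log2 difference Krt10 (-3.02), Pkp1 (-2.51) and Krt14 (-0.23) were lower. Krt5 (0.96), Cdh1 (0.73), Dsp (0.63) and Krt1 (0.30) were higher. Immune markers summed to 902 to 1063 in the pigmented line, against 583 to 878, and endothelial markers to 371.6 to 371.9, against 294 to 301, in the non-pigmented line. Among immune markers Csf1r (453 and 753, against 193 and 481) and Itgam were higher by log2 difference, and Ptprc, Cd68, Cd14 and Cd3e were lower. The part of other cell types in the Bex1 difference was not tested beyond these values.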

How the data were processed

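Expression was measured with 4 Affymetrix mouse arrays, 2 per line, in 1 colour. The authors deposited linear probe set intensity values made with Affymetrix Expression Console, per the submitters' processing notes. Its version and summary algorithm are not given in the sources used here. Each deposited column had a 2% trimmed mean of 500.002 to 500.003, so the intensity values had been scaled per array, which does not correct for RNA integrity. Median signals were 129.7 and 125.8 in the pigmented and 111 and 99.7 in the non-pigmented line.

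Of 45101 probe sets, 64 controls were left out, and 34945 had 1 symbol in the platform annotation, 932 several and 9160 none. Symbols were checked through Entrez numbers (34741 matched, 0 changed). A gene was represented by its probe set with the highest mean. Values were log2(signal + 16), and genes under the 40th percentile of probe sets were left out. Lines, dates and RNA integrity classes (a Gapdh ratio over 3) were compared with limma 3.58.1 in R 4.3.3 (lmFit, eBayes with an intensity trend), with p-values adjusted over 12558 genes by Benjamini-Hochberg. For dates and classes the line was a further term. With 2 arrays per line an exact permutation test cannot go below a two-sided p of 0.333, and the number of arrays limits the precision.

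Same-date arrays deviated from their line means with a correlation of -0.51, and arrays of the same RNA integrity class with 0.51, which in this layout is one value with its sign turned. The date, from the titles, was therefore used as a block only in an alternative. Start-site windows were aligned locally with Biopython 1.88 (match 2, mismatch -3, gap opening -7, gap extension -2). Figures used matplotlib 3.10.9. The fit was tested on simulated data.

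The Bex genes and all gene lists were chosen with earlier results of these data known. Named genes are the members, up to 4 genes of each list with the smallest p, and the 3 genes most like each tested member. Ngfr, Lmo2, Rest, Tceal8 and markers were named after their values were seen. Alternatives were 2 normalizations, 2 pseudocounts, 2 filters, probe set means, 2 variance models, 2 blocks and leaving out each array. Genes without a probe set of 1 symbol were not analysed here.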

Additional observations from a re-analysis of the deposited data

How the results depend on the processing

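The described log2 differences of Bex2, Bex3, Bex4 and Bex6 moved by less than 1 SD of the arrays under all 11 alternatives other than leaving out an array. That of Bex1 moved by more only with a pseudocount of 64 (6.65) and lay between 6.93 and 8.68 without single arrays. Without single arrays the range was 0.32 to 1.64 for Bex2, -0.20 to 0.60 for Bex3, 0.28 to 1.40 for Bex4 and -0.20 to 1.58 for Bex6. Median centring moved the median difference of all tested genes to -0.18, against 0.07. Blocking on the RNA integrity pair gave 884 calls between the lines, against 422 without it. The count was 234 to 772 without single arrays (234 without non-pigmented replicate 2, 772 without pigmented replicate 1), and 392 with the date as a replicate block. The Tceal, Armcx and Gprasp list had 2 calls with the RNA integrity block. The neuronal list had 4 calls with that block and 1 with a pseudocount of 1, without the filter, with the filter at the 60th percentile, with probe set means, with eBayes without trend or with robust estimation, and with the date as a replicate block, and 1 to 3 without single arrays. The list of X neighbours had 1 call with the filter at the 60th percentile, where Tcp11x2 was not tested, and with probe set means. Bhlhb9 and Syt4 passed under all alternatives (adjusted p of 0.00114 to 0.0239 and of 0.000302 to 0.0204). Genes called between the RNA integrity classes numbered 727 with quantile normalization, 1047 with median centring, 27 with a pseudocount of 64 and 41 with probe set means, and 0 under the other 5 alternatives. The log2 difference of Bex1 in that contrast was 1.51 with quantile normalization and 1.64 with median centring. Both values use a non-pigmented signal at background, so no p is given for them. Between the dates that of Bex1 was 0.24 with a pseudocount of 1, a turned sign far inside its error. The causes of these shifts were not tested. For dates and RNA integrity classes no fit without single arrays was possible, since no residual degree of freedom is left. The low non-pigmented Bex1 signal and the dim Bex2, Bex4 and Bex6 limit what the arrays can measure.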
